A study of Homo sapiens with 9 samples.

Results

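Glycolysis and hypoxia-responsive genes were followed in human embryonic stem cells of the established WA09 line as 37 genes of 40 listed, out of 19775 genes measured. The members are the enzymes and carriers of glycolysis, the subunits and oxygen sensors of the hypoxia-inducible factors, and well-known targets of those factors. Where the platform annotation gives several probe sets to that gene alone, the one brightest on average across the 9 arrays was used. SLC16A1, SLC16A3 and CA9 had no such probe set and were not analysed here.

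The study compared 3 conditions with 3 arrays each and asks how the p53 response to differentiation compares with that to DNA damage. Cells of the pluripotent condition were untreated. Those of the damage condition received DOX (doxorubicin, which traps topoisomerase II on DNA and so breaks it) for 5 h, at a dose not stated in the labels. Those of the differentiating condition received 1 µM retinoic acid (RA) over 2 days, in medium to which no FGF was added, so the absence of that factor and RA cannot be told apart. All cells were of passages 32 to 38. The protocols describe culture on irradiated mouse fibroblasts and feeder-free culture on Matrigel, without saying which gave each array, and no label says whether replicate arrays are separate cultures. The p-values thus measure only how far these arrays scatter, and that scatter may be technical.

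Glycolysis turns glucose into pyruvate and yields ATP without oxygen, and pluripotent stem cells are known to lean on it. Pyruvate is then either reduced to lactate by lactate dehydrogenase or oxidised in mitochondria by pyruvate dehydrogenase, which PDK kinases switch off and PDP phosphatases switch on. When oxygen is low, the factors HIF1A and EPAS1 escape hydroxylation by EGLN enzymes, pair with ARNT and raise genes of glucose uptake, glycolysis, mitophagy, collagen folding and blood vessel growth. Because the factors are held down mainly as proteins, their transcript levels do not report their activity.

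The sequence that hypoxia-inducible factors read has the core ACGTG or GCGTG. Only ACGTG, called the core below, was searched, on both strands, in the 250 bases before each annotated start site in RefSeq (GRCh38.p14). GCGTG was neither counted nor marked, so a gene said to lack the core may still hold that form. A gene can have several such windows. Of the 37 members, 33 had a window and 20 (60.6%) had the core in at least 1 of them, against 21.7% of 27305 genes with a window. Counted by window, 25 of 58 (43.1%) held it, against 18.5% of all windows. Many members were listed as known targets of these factors, so a share above that of all genes tests nothing. The core overlaps the E-box CACGTG, which other factors read and which 6.34% of all 35116 windows held. The core was present for 6 of 7 members that were lower after DOX and had a window, for 0 of 3 that were higher, and for 14 of 23 that passed in neither direction. These counts are small, and a link between the core and the direction of change was not tested. VEGFA and NDRG1, which rose, and BNIP3L, which fell, had no window. Of the members that fell, ARNT lacked the core. PFKM had it in 1 of its 7 windows, and its stretch is not shown. The stretches of BNIP3, EGLN1, P4HA1, HK2 and PDK3 are shown because they fell after DOX and had the core, and that of LDHA as an enzyme with the core that did not pass. Each runs 5′ to 3′ on the gene's strand from at most 30 bases before to 30 bases after the match nearest the start site of the most upstream window, with the core on either strand in capitals. A match is a string of letters, not a shown binding site.
BNIP3: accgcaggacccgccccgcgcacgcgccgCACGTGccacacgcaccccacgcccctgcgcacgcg
EGLN1: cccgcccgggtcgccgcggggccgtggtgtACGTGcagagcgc
P4HA1: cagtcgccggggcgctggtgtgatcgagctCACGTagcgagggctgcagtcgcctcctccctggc
HK2: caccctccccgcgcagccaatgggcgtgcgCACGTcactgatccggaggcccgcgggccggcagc
PDK3: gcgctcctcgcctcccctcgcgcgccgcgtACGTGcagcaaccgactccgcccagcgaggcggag
LDHA: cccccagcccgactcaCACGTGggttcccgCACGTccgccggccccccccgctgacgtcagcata
Each lies upstream of the start site, outside the transcript that begins there: BNIP3 at chr10:131982022-131982086 (minus strand), EGLN1 at chr1:231422288-231422330 (minus), P4HA1 at chr10:73096918-73096982 (minus), HK2 at chr2:74834049-74834113 (plus), PDK3 at chrX:24465195-24465259 (plus) and LDHA at chr11:18394460-18394524 (plus).

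Levels are normalised log2 intensities, and changes are differences of log2 means of 3 arrays against 3, with the standard error (SE) from limma and adjusted p-values from limma after Benjamini-Hochberg adjustment over all 19775 genes. A gene is said to rise or fall where the adjusted p is under 0.05. Arrays of a condition correlated at 0.996 to 0.998 across genes, and array medians over all probe sets were 4.62 to 4.68. The treatment markers moved with the labels: the p53 targets CDKN1A and MDM2 rose by 3.71 and 2.02 after DOX, and the retinoid targets CYP26A1 and RARB rose by 1.64 and 2.21 after RA. CDKN1A and MDM2 also rose after RA, by less (0.92 and 0.42, adjusted p = 0.00063 and 0.016), so they do not mark DOX alone. The 8 measured pluripotency markers, of which SOX2 fell after DOX and NANOG after RA, averaged 12.01 to 12.10 on the pluripotent arrays, 11.84 to 11.95 on the damage arrays and 12.05 to 12.18 on the differentiating arrays. In bulk RNA, fewer cells of a type and less RNA per cell cannot be told apart.

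After DOX the members split. EPAS1, NDRG1, P4HA2, VEGFA and SLC2A1 rose, while BNIP3, EGLN1, BNIP3L, P4HA1, HK2, ARNT, PDK3 and PFKM fell. That is 5 higher (5.67% of all genes were) and 8 lower (9.6% of all genes), or 35.1% of the members called against 15.3% of all genes. Most members are well above the median probe set, where calls are commoner. With the test limited to genes over the median level of all genes, 38.2% of 34 members were called against 32% of all such genes. That left out EPAS1, NDRG1 and LOX, at percentiles 45.3, 46.8 and 28.8 of the level of all genes. The median change of the members was −0.05, beside −0.00 for all genes. The damage arrays did not overlap the pluripotent arrays for 19 of the 37 members, against 28.9% of all genes. That share was not computed for genes over the median level alone. Of the members called, 1 was at least 2-fold higher, EPAS1 (1.24% of all genes were), and 0 were at least 2-fold lower (0.283% of all genes).

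After RA few members were called. VEGFA and PDK3 rose and PFKFB3 fell, which is 8.11% of the members against 6.47% of all genes (3.16% higher, 3.32% lower). Among genes over the median level the order turned, to 8.82% of 34 members against 14.7% of all genes. Limma called 0 members with a 2-fold change, against 0.541% of all genes higher and 0.405% lower, and 9 members were at an unadjusted p under 0.05. The median change was −0.00 for the members and for all genes. Arrays of the differentiating condition lay apart from the untreated ones for 9 of the 37 members, against 22.6% of all genes. Both comparisons use the same 3 pluripotent arrays. Over the 3 conditions together 14 members differed by limma's moderated F test, against 22.1% of all genes.

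**Figure D1:**
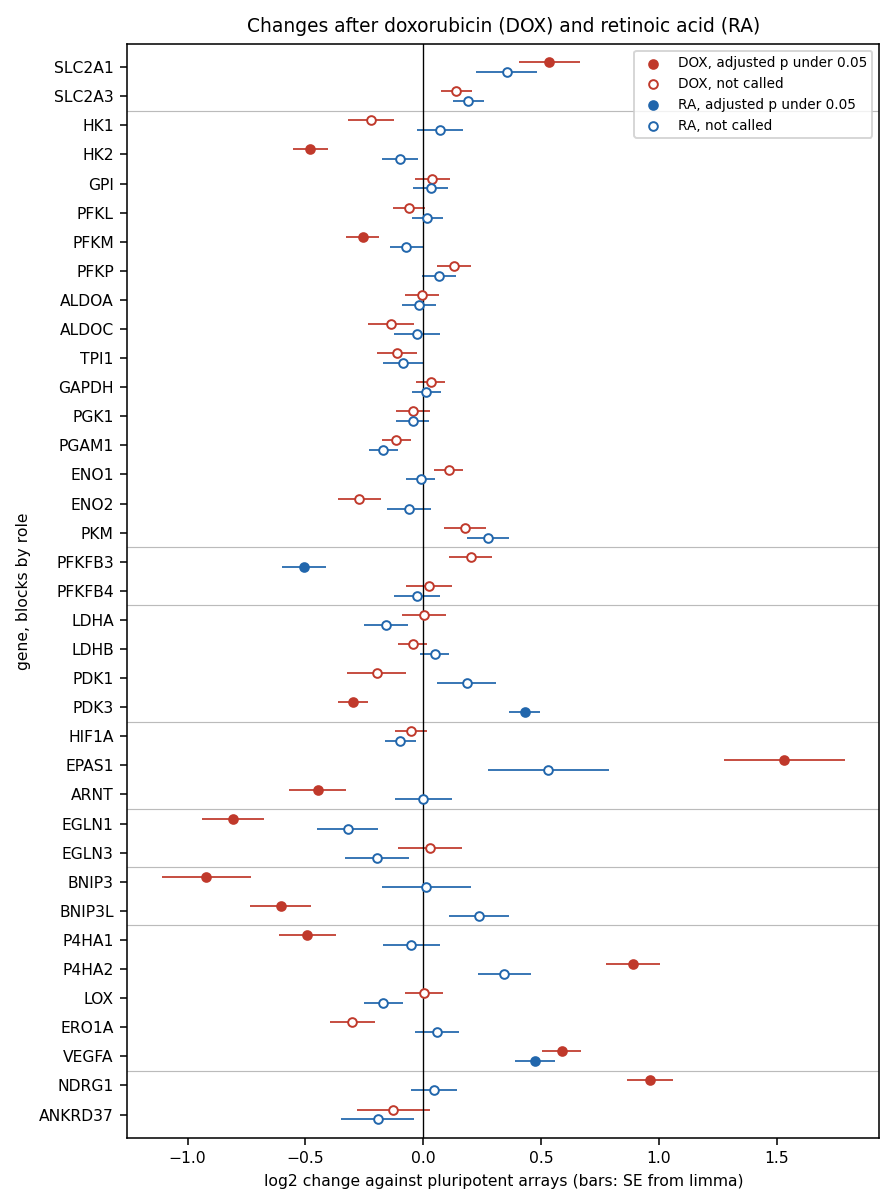
Log2 change of each of the 37 members against the pluripotent arrays after DOX (red) and RA (blue), with bars for limma's SE; filled points passed an adjusted p under 0.05, and lines separate the roles. The enzymes sit near 0 in both comparisons, and the DOX changes run from BNIP3 at −0.92 to EPAS1 at 1.53, with NDRG1 at 0.96.

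The glycolytic enzymes themselves had small changes, from −0.48 to 0.18 after DOX and from −0.17 to 0.27 after RA. Of 15, 2 fell after DOX and 0 rose, a share of 13.3% against 15.3% of all genes. After RA limma called 0 of the 15, against 6.47% of all genes, and 2 were at an unadjusted p under 0.05. GAPDH, which oxidises glyceraldehyde phosphate, stood at 14.17, 14.21 and 14.20 on the pluripotent arrays, at 14.20, 14.20 and 14.27 after DOX and at 14.23, 14.21 and 14.17 after RA. Its groups overlapped throughout, with changes of 0.03 ± 0.06 and 0.01 ± 0.06. ALDOA, GPI and PGK1 also lay within 0.05 of 0 in both comparisons. For GAPDH, PGK1, PGAM1 and LDHA, which have near-identical pseudogene copies, which copy the probes read is uncertain.

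HK2 and PFKM were the enzymes called after DOX, while HK1, GPI, PFKL and PFKP, which also act early in the pathway, were not. HK2, the inducible hexokinase that traps glucose in the cell, read 9.68, 9.67 and 9.51 on the pluripotent arrays and 9.20, 9.08 and 9.13 on the damage arrays, with no overlap. It fell by 0.48 ± 0.08 after DOX (adjusted p = 0.0016). After RA the levels were 9.43, 9.57 and 9.56, which overlapped the pluripotent ones (−0.10, adjusted p = 0.6). With the mean of its 3 probe sets the DOX value was −0.20 and missed the threshold (adjusted p = 0.060). HK1, the constitutive hexokinase, was at −0.22 after DOX and did not pass (adjusted p = 0.17).

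PFKM, the muscle-type phosphofructokinase, read 9.44, 9.54 and 9.56 untreated and 9.32, 9.16 and 9.28 after DOX. The groups did not overlap, and PFKM fell by 0.26 ± 0.07 (adjusted p = 0.031). The call was lost without the second or the third pluripotent array (−0.24 and −0.23, adjusted p = 0.11 and 0.073) and without the second or the third damage array (−0.21 and −0.27, adjusted p = 0.10 and 0.057). Its relatives PFKL and PFKP were at −0.06 and 0.13 and did not pass. ENO2, the neuronal enolase, was at −0.27 after DOX with an adjusted p of 0.076, and its call appeared under 3 of 19 other settings.

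PFKFB3 makes fructose 2,6-bisphosphate, the strongest activator of phosphofructokinase. It read 7.83, 7.92 and 7.76 on the pluripotent arrays, 8.01, 8.11 and 8.0 after DOX, and 7.16, 7.33 and 7.51 after RA. The differentiating arrays were the lowest of all 9, and PFKFB3 fell by 0.51 ± 0.09 after RA (adjusted p = 0.0068), while the DOX value of 0.20 did not pass (adjusted p = 0.19). Set directly against the damage arrays, the RA level was lower by a log2 change of −0.71 ± 0.09 (adjusted p = 0.00026). PFKFB4, its close relative, was at 0.03 after DOX and −0.03 after RA. PFKFB3 rests on 1 probe set.

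Both glucose carriers read higher on the treated arrays, with 1 call. SLC2A1, the widely used carrier GLUT1, read 7.50, 7.55 and 7.07 untreated, 7.96, 7.79 and 7.98 after DOX and 7.58, 7.71 and 7.90 after RA. Every treated array was above every pluripotent array. SLC2A1 rose by 0.54 ± 0.13 after DOX (adjusted p = 0.017), and its RA value of 0.35 did not pass (adjusted p = 0.17). Without the first or the third damage array the DOX call was lost (0.51 and 0.50, adjusted p = 0.054 and 0.063), and the other SLC2A1 probe set was at 0.18 (adjusted p = 0.32 over all probe sets). SLC2A3, the high-affinity carrier GLUT3, was at 0.14 after DOX and 0.19 after RA and passed in neither comparison. Another of its 3 probe sets was higher after DOX (0.35, adjusted p = 0.0097 over all probe sets), and with the mean of the 3 the gene was called (0.21, adjusted p = 0.042). The probes may also read the near-identical SLC2A14.

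At the branch after pyruvate a pyruvate dehydrogenase kinase was called and the lactate dehydrogenases were not. LDHA was at 0.00 ± 0.09 after DOX and −0.16 ± 0.09 after RA, and LDHB at −0.05 and 0.05, and neither passed. PDK3, a kinase that inhibits pyruvate dehydrogenase, read 10.26, 10.26 and 10.22 untreated, 10.00, 9.88 and 9.98 after DOX and 10.71, 10.64 and 10.69 after RA. The 3 conditions did not overlap, with the damage arrays lowest and the differentiating arrays highest. PDK3 fell by 0.30 ± 0.06 after DOX (adjusted p = 0.0094), rose by 0.43 ± 0.06 after RA (adjusted p = 0.0020), and was higher after RA than after DOX by 0.73 ± 0.06 (adjusted p = 1.7e-05). Of its 5 probe sets 3 were lower after DOX, but only 1 was higher after RA, and with the mean of all 5 the RA value was 0.15 (adjusted p = 0.22). PDK1, a kinase raised by hypoxia, was at −0.20 and 0.18 and did not pass.

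An opposing phosphatase, named here because it was called, moved the other way. PDP1, which switches pyruvate dehydrogenase back on and is not a member, read 8.61, 8.50 and 8.95 untreated, 9.59, 9.94 and 9.71 after DOX and 7.90, 7.94 and 8.12 after RA. It rose by 1.06 ± 0.13 after DOX (adjusted p = 0.00025) and fell by 0.70 ± 0.13 after RA (adjusted p = 0.0066), without overlap between conditions. In the list of pyruvate dehydrogenase and its regulators, 1 of 8 measured genes rose after DOX and 0 fell (12.5%, against 15.3% of all genes). After RA 1 rose, the subunit gene PDHB at 0.26, and 1 fell (25%, against 6.47% of all genes). MPC1, which carries pyruvate into mitochondria, rose by 0.49 after DOX. Of 13 measured genes of the TCA cycle limma called 0 in either comparison, with 2 at an unadjusted p under 0.05 in each. Of all genes 15.3% and 6.47% were called, so few calls would be due in a list this short.

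**Figure D2:**
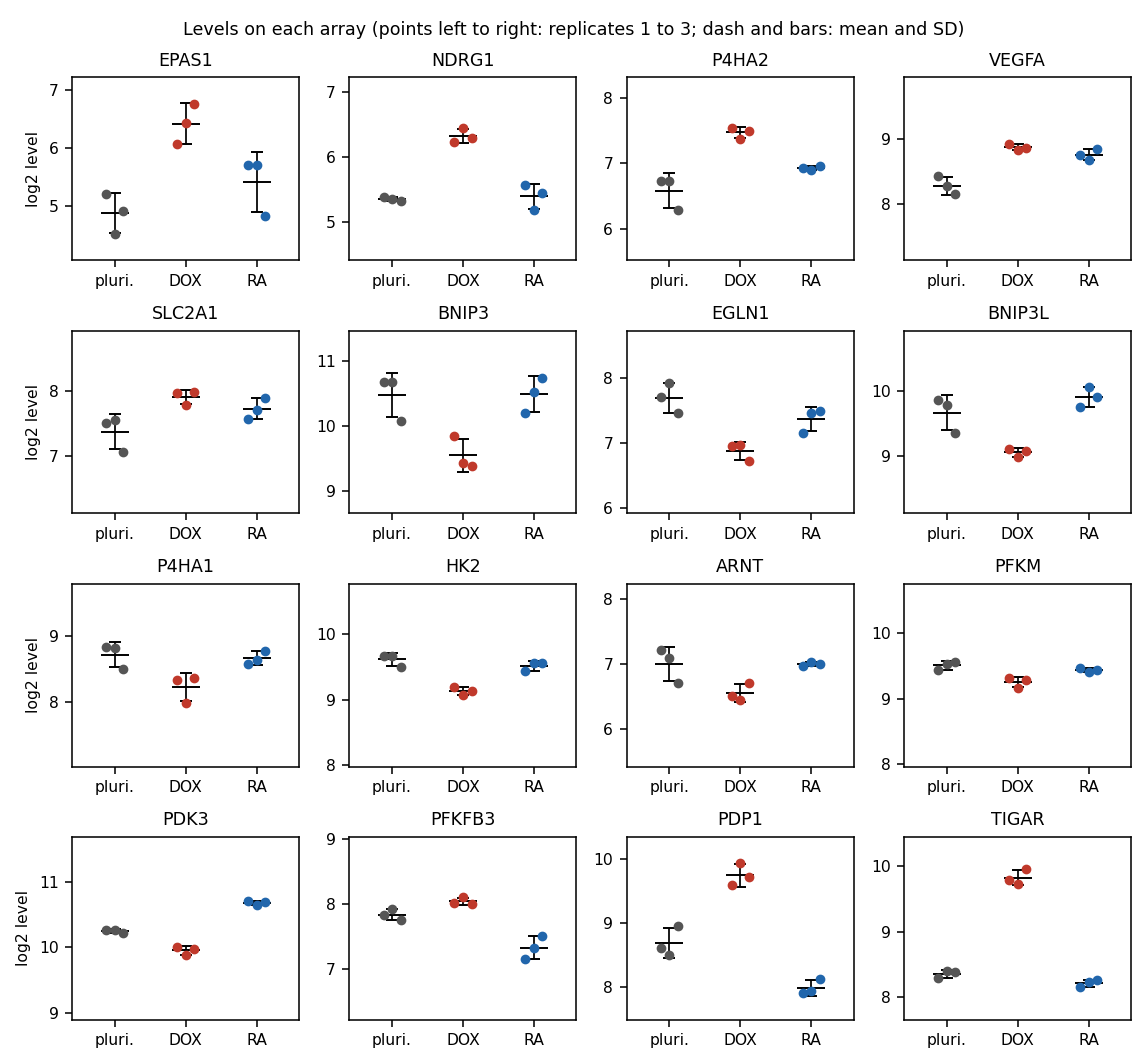
Log2 level on each array (points; replicates 1 to 3 from left to right) with mean and SD (n = 3) for the 14 members that changed after DOX or RA and for PDP1 and TIGAR; axes start above 0 and differ between panels. PDK3 is lowest after DOX and highest after RA, and PDP1 shows the opposite order.

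The subunits of the hypoxia-inducible factors changed unequally. EPAS1 (HIF-2α) read 5.22, 4.52 and 4.92 on the pluripotent arrays, 6.07, 6.43 and 6.77 on the damage arrays and 5.72, 5.71 and 4.83 on the differentiating arrays. All damage arrays lay above all others, whereas the RA arrays overlapped the pluripotent ones. EPAS1 rose 2.89-fold after DOX (1.53 ± 0.26, adjusted p = 0.0023), the largest change among the members, from a level near the median probe set of 4.66. Its RA value was 0.53 (adjusted p = 0.33). The call after DOX rests on 1 of 3 probe sets, the others being below the median probe set, and with the mean of the 3 its change was 0.53.

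HIF1A (HIF-1α) was not called, at 11.76, 11.72 and 11.66 untreated, 11.60, 11.71 and 11.68 after DOX and 11.58, 11.68 and 11.59 after RA. The groups overlapped, with changes of −0.05 ± 0.07 and −0.10 ± 0.07. ARNT, the shared partner, read 7.21, 7.09 and 6.70 untreated and 6.51, 6.45 and 6.71 after DOX. ARNT fell by 0.45 ± 0.12 (adjusted p = 0.030), although the third pluripotent array lay within the range of the damage arrays. That call was lost without the first or second pluripotent array (−0.34 and −0.41, adjusted p = 0.12 and 0.11), without the first or second damage array (−0.42 and −0.39, adjusted p = 0.082 and 0.10), and with the mean of its 7 probe sets (−0.09). After RA ARNT was at −0.00.

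EGLN1, the main prolyl hydroxylase that marks the factors for destruction, read 7.70, 7.92 and 7.45 untreated, 6.95, 6.98 and 6.72 after DOX and 7.15, 7.47 and 7.49 after RA. The damage arrays were below every other array. EGLN1 fell by 0.81 ± 0.13 after DOX (adjusted p = 0.0018), and its RA value of −0.32 did not pass (adjusted p = 0.23). The DOX call rests on 1 of 4 probe sets, and with the mean of the 4 the change was −0.34 (adjusted p = 0.028). EGLN3, an inducible relative, was at 0.03 and −0.20. Among 8 further genes of oxygen sensing, including VHL, HIF1AN and EGLN2, limma called 0 after DOX and 0 after RA, with 0 and 2 at an unadjusted p under 0.05. Of all genes 15.3% and 6.47% were called, so 0 of 8 does not set this list apart.

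The paired mitophagy receptors fell together after DOX. BNIP3, which tethers mitochondria for removal, read 10.68, 10.67 and 10.08 untreated, 9.85, 9.43 and 9.38 after DOX and 10.20, 10.52 and 10.74 after RA. BNIP3 fell 1.89-fold after DOX (−0.92 ± 0.19, adjusted p = 0.0072), the lowest change among the members, and both of its probe sets were lower. BNIP3L (NIX) read 9.86, 9.78 and 9.35 untreated, 9.11, 8.98 and 9.08 after DOX and 9.74, 10.06 and 9.90 after RA. It fell by 0.61 ± 0.13 (adjusted p = 0.0084), on 1 of 2 probe sets, the other being at −0.27 (adjusted p = 0.15 over all probe sets). For both genes the damage arrays lay below all other arrays, and the RA values, 0.01 and 0.24, did not pass. Both calls stood in each of the 6 fits that left out a compared array.

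Genes of matrix and secretion moved both ways. P4HA2 and P4HA1 encode alternative catalytic subunits of the prolyl hydroxylase that stabilises collagen. P4HA2 read 6.74, 6.74 and 6.28 untreated, 7.55, 7.38 and 7.50 after DOX and 6.93, 6.90 and 6.96 after RA. It rose by 0.89 ± 0.11 after DOX (adjusted p = 0.00042), on 2 of 3 probe sets, and the RA value of 0.34 did not pass (adjusted p = 0.12). P4HA1 read 8.83, 8.82 and 8.50 untreated, 8.33, 7.98 and 8.36 after DOX and 8.58, 8.64 and 8.78 after RA. It fell by 0.49 ± 0.12 (adjusted p = 0.019) without overlap between the damage and pluripotent arrays. The P4HA1 call was lost without the first or second pluripotent array (−0.43 and −0.44, adjusted p = 0.082 in each) and without the second damage array (−0.37, adjusted p = 0.065), and the other P4HA1 probe set, a dim one, was at −0.03.

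VEGFA, the main angiogenic growth factor, was the member that rose in both comparisons. It read 8.43, 8.27 and 8.15 untreated, 8.92, 8.83 and 8.86 after DOX and 8.75, 8.67 and 8.85 after RA. All treated arrays lay above all pluripotent arrays. The rise was 0.59 ± 0.08 after DOX (adjusted p = 0.00086) and 0.47 ± 0.08 after RA (adjusted p = 0.0058), on 1 of 4 probe sets each time, and with the mean of the 4 the RA value was 0.21 (adjusted p = 0.061). ERO1A, which drives disulfide formation in the endoplasmic reticulum, was at −0.30 after DOX and just missed the threshold (adjusted p = 0.055). LOX, which cross-links collagen, averaged below the median probe set and did not pass in either comparison.

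NDRG1, a stress-responsive gene raised by hypoxia and also reported as a p53 target, read 5.39, 5.36 and 5.33 untreated, 6.23, 6.44 and 6.29 after DOX and 5.57, 5.19 and 5.45 after RA. The damage arrays stood clear of all others. NDRG1 rose 1.95-fold after DOX (0.96 ± 0.10, adjusted p = 7.9e-05), with the smallest adjusted p among the members, and was at 0.04 after RA. NDRG1 rests on 1 probe set, whose mean of 5.69 is below the median level of all genes. ANKRD37, a compact hypoxia target, was at −0.13 and −0.19 and did not pass.

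Some markers of fibroblasts and stromal cells, which a culture could hold, were called in each comparison. Of 10, 4 rose after DOX and 0 fell (40% called, against 15.3% of all genes). They were ACTA2 (1.70), TAGLN (1.59), COL1A1 (1.08) and THY1 (0.33), and the other 6 were not called. The mean level of the 10 was 6.77 to 6.84 on the pluripotent arrays, 7.29 to 7.39 on the damage arrays and 6.68 to 6.77 on the differentiating arrays. On each array 2 or 3 of the 10 were below the median probe set, LUM and POSTN on all 9. The collagen genes COL1A1 (10.32 to 11.61) and COL1A2 (9.15 to 9.50), THY1 (8.67 to 9.67) and TAGLN (8.71 to 12.31) were far above it throughout. After RA 2 of the 10 rose, COL1A1 (1.00) and COL3A1 (0.57), and 2 fell, TAGLN (−1.76) and THY1 (−0.37). That is 40% called, against 6.47% of all genes. The part of these cells in the changes of the matrix genes and of EPAS1 was not tested.

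**Figure D3:**
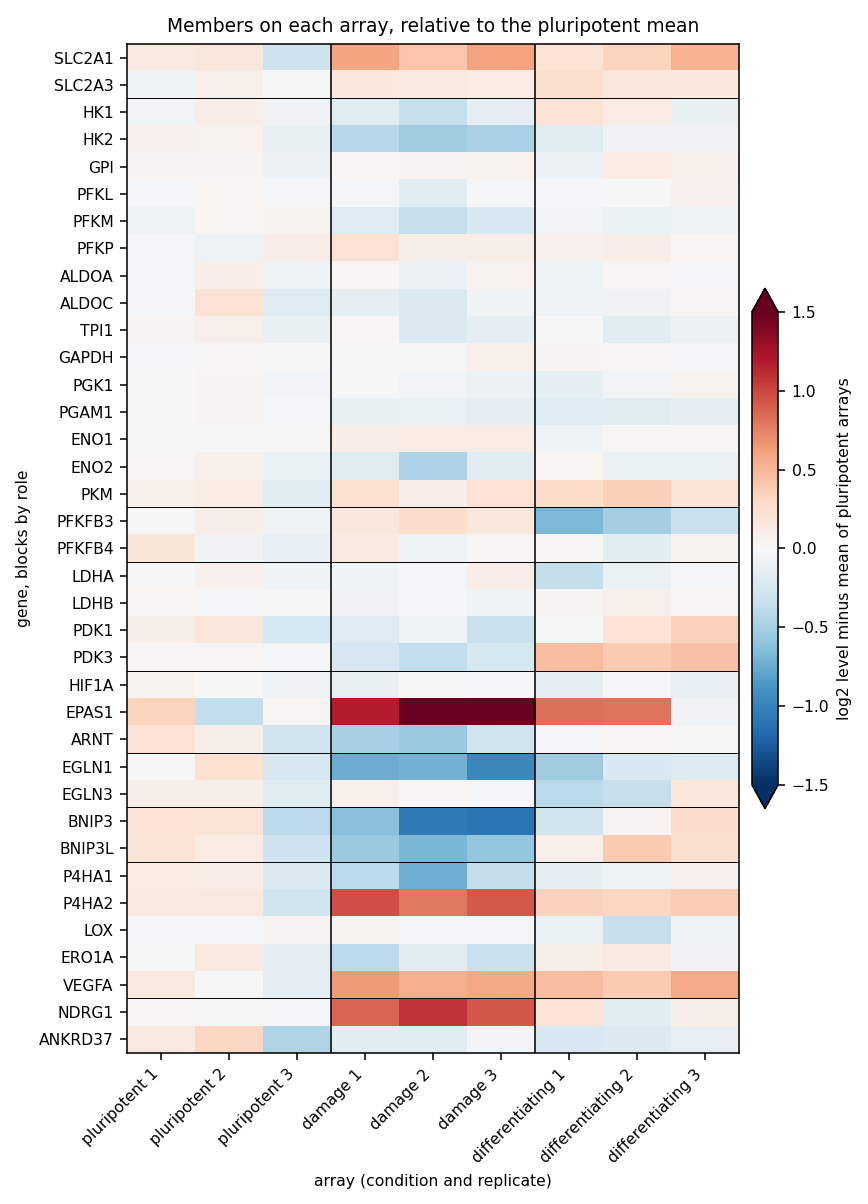
Log2 level of each of the 37 members on each of the 9 arrays minus the mean of the 3 pluripotent arrays; blocks follow the roles, and colours stop at 1.5 in either direction, which EPAS1 passes on 2 damage arrays. BNIP3, BNIP3L and EGLN1 are blue on the damage arrays and P4HA2, NDRG1 and EPAS1 red, and the third pluripotent array is pale blue for most hypoxia genes.

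Set directly against each other, the treatments gave 8 members higher after RA than after DOX and 4 lower, or 32.4% called against 21.2% of all genes (12.6% higher, 8.62% lower). With the test limited to genes over the median level the order turned, to 38.2% of 34 members against 41.4% of all genes. The arrays of the treatments did not overlap for 21 of the 37 members, against 34.8% of all genes, a share not computed for genes over the median level alone. At least 2-fold, 0 members were higher (1.13% of all genes) and 1, EPAS1, was lower (1.52%). BNIP3 was higher by 0.93 ± 0.19 (adjusted p = 0.0046), BNIP3L by 0.84 ± 0.13 (adjusted p = 0.00076) and HK2 by 0.38 ± 0.08 (adjusted p = 0.0041). PDK3, ARNT, EGLN1, P4HA1 and ERO1A were the others that were higher. When each gene's probe sets were averaged, 4 of these were not called: HK2 at 0.06, ARNT at 0.12, EGLN1 at 0.16 and P4HA1 at 0.20 (adjusted p = 0.59, 0.31, 0.25 and 0.14). EPAS1 (adjusted p = 0.017), NDRG1 (−0.92 ± 0.10, adjusted p = 6.2e-05), P4HA2 (−0.55 ± 0.11, adjusted p = 0.0057) and PFKFB3 were lower. VEGFA (−0.11, adjusted p = 0.40) and SLC2A1 (−0.18, adjusted p = 0.39) were not called, which does not show equal levels. The calls for ARNT, EGLN1, P4HA1 and ERO1A were lost in 5, 3, 3 and 4 of the fits that left out an array of either treatment, with adjusted p up to 0.083, 0.085, 0.090 and 0.074. The call for EPAS1 was lost without the second or the third damage array (adjusted p = 0.051 and 0.073).

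Relatives that do the same job could change unequally, which was read as the within-array difference of 2 paralogs. Of 14 measured pairs, 8 had differences that did not overlap between the damage and pluripotent arrays and 3 between the differentiating and pluripotent arrays. For single genes such separation was seen in 28.9% and 22.6%, which is an unlike measure, and no share over pairs of genes was computed. Several separated pairs hold a gene that was called on its own, so they partly restate those calls. The log2 difference of HIF1A minus EPAS1 was −1.58 away from its untreated value after DOX (SD 0.31 in treated and 0.33 in untreated arrays, n = 3 each). That of P4HA1 minus P4HA2 was −1.38 away, and that of EGLN1 minus EGLN3 −0.84. After RA the shift was −0.48 for PFKFB3 minus PFKFB4 and −0.39 for P4HA1 minus P4HA2. Two-sided, the exact permutation p was 0.1 for each of these, the smallest that 3 arrays against 3 allow, and 0.175 (DOX) or 0.467 (RA) after Benjamini-Hochberg adjustment over the 14 pairs.

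The spread between arrays of a condition was itself shared by many members. On the third pluripotent array 28 of the 37 members had the lowest value of the 3 pluripotent arrays, against 38.5% of all genes. Its median deviation from the pluripotent mean was −0.09 over the members and −0.00 over all genes. ANKRD37 read 5.99 there against 6.58 and 6.75, BNIP3 10.08 against 10.68 and 10.67, and SLC2A1 7.07 against 7.50 and 7.55. Without that array 5 members rose and 9 fell after DOX (37.8% against 16.9% of all genes), and 2 rose and 2 fell after RA. ANKRD37 was then called lower after DOX (−0.35, adjusted p = 0.019) and after RA (−0.42, adjusted p = 0.018), and ERO1A lower after DOX (−0.37, adjusted p = 0.023). On the first differentiating array 20 of the 37 members were the lowest of their condition, against 33.4% of all genes.

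**Figure D4:**
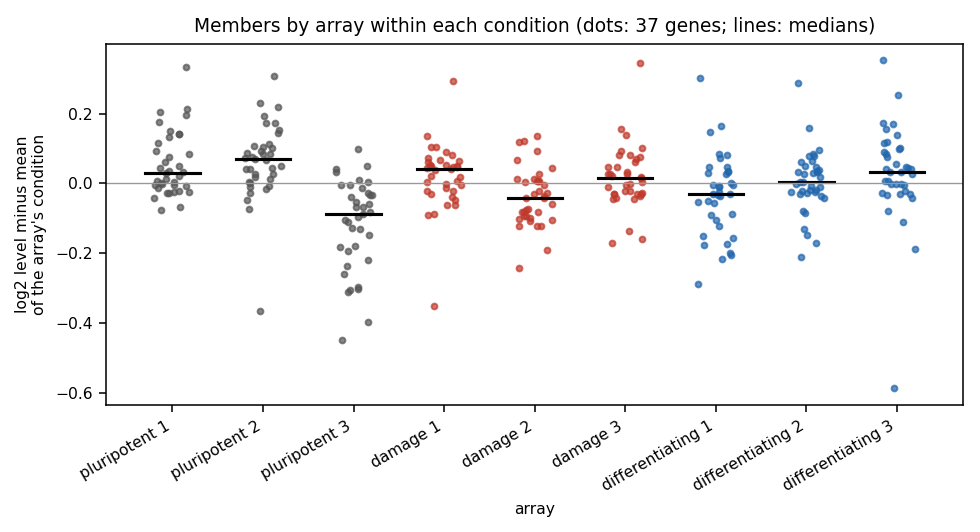
Log2 level of each of the 37 members (dots) on each array minus the mean of that array's condition, with black lines for medians. The third pluripotent array has a median of −0.09, and the second pluripotent array one of 0.07.

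Further genes of the same processes, taken from lists of non-members, gave these counts. Of 28 measured further hypoxia targets 5 rose and 8 fell after DOX (46.4%, against 15.3% of all genes), and 7 rose and 2 fell after RA (32.1%, against 6.47%). Their medians were −0.06 and 0.09. The list was chosen with earlier results of these data known, so these shares describe it and test nothing. With the test limited to genes over the median level, 13 of the list were called after DOX and 13 after RA. Of all genes over that level, 32% and 14.7% were called. How many of the 28 lay over it was not counted, so no share of the list is given beside these. BHLHE40, a repressor and clock gene, rose by 4.09 after DOX and was at 0.07 after RA, while ADM, a vasodilator peptide gene, rose by 2.33 and 2.14. IGFBP3, which binds insulin-like growth factors, rose by 1.11 and 0.40, and STC1, a secreted glycoprotein gene, was lower in both (−0.98 and −1.80, adjusted p = 0.0023 and 6e-05). RORA, a nuclear receptor gene, fell by 1.27 after DOX. AK4, a mitochondrial adenylate kinase gene, fell by 1.30 after RA, and STC2, the relative of STC1, rose by 1.27.

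MXI1, which opposes MYC, and HILPDA, a lipid droplet protein gene, were lower after DOX and higher after RA, like PDK3. MXI1 was at −0.38 after DOX (adjusted p = 0.032) and 0.71 after RA (adjusted p = 0.0017), and HILPDA at −0.61 (adjusted p = 0.0048) and 0.48 (adjusted p = 0.031). They were singled out after their values were seen.

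**Figure D5:**
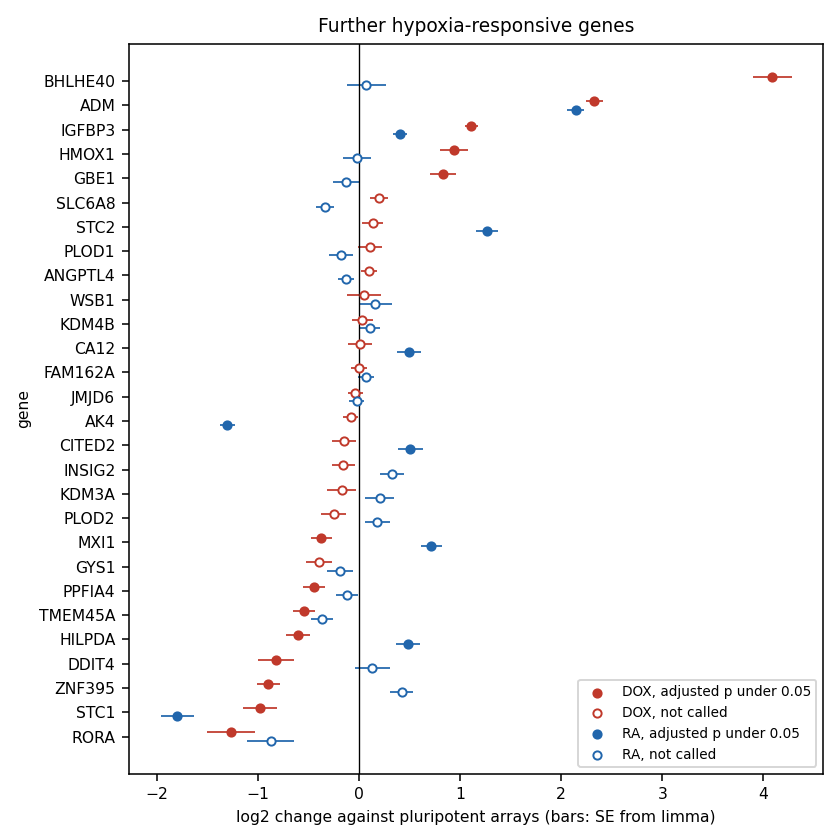
Log2 change against the pluripotent arrays of the 28 measured further hypoxia-responsive genes after DOX (red) and RA (blue), ordered by the DOX change, with bars for limma's SE and filled points for an adjusted p under 0.05. BHLHE40 at 4.09 and ADM at 2.33 stand out after DOX, and STC1 at −1.80 and AK4 at −1.30 are the lowest after RA.

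Further lists around glycolysis gave few calls. TIGAR, a p53 target that lowers fructose 2,6-bisphosphate, read 8.29, 8.40 and 8.38 untreated, 9.80, 9.73 and 9.95 after DOX and 8.15, 8.22 and 8.25 after RA. It rose by 1.47 ± 0.08 after DOX (adjusted p = 5e-07). TIGAR, which is not an enzyme of the pentose phosphate pathway, was counted in the list of that pathway. It was the 1 gene called there among 7 measured (14.3%, against 15.3% of all genes). After RA limma called none of that list (0, against 6.47% of all genes, with 2 at an unadjusted p under 0.05). Among 14 further glycolysis enzymes ADPGK rose (0.28) and BPGM fell (−0.57) after DOX, and ENO3 (0.86) and PGM1 (0.43) rose after RA. That is 14.3% in each comparison, against 15.3% of all genes after DOX and 6.47% after RA. Among 11 further glucose, lactate and pyruvate carriers MPC1 and SLC2A12 rose (0.49 and 0.45) and SLC2A13 fell (−0.56) after DOX (27.3%, against 15.3% of all genes). After RA limma called 0 of these carriers, against 6.47% of all genes, with 2 at an unadjusted p under 0.05.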

How the data were processed

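Per the submitters' processing notes, the authors deposited log2 values per probe set made with RMA and affy (no versions given). RMA corrects background, normalises probes between 1-colour Affymetrix arrays by quantiles and summarises probe sets, which compresses folds of dim genes and removes a shift shared by most genes. The log2 scale was read from the range, 2.36 to 14.84. Of 54675 probe sets, 41091 had exactly 1 gene in the platform annotation, 1801 several and 11721 none, and 62 were controls. Of those with 1 gene, 41037 matched RefSeq by Entrez identifier. The probe set with the highest mean was kept per gene.

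A linear model of 3 conditions on all 9 arrays was fitted with limma 3.58.1 in R 4.3.3 and the main test kept dim genes. The fit had 6 residual degrees of freedom and 4.63 from the prior. It was tried on simulated data over 19775 genes, with scatter drawn independently per gene and 200 genes changed. There it recovered 60% of changes of 0.5 and 97% of changes of 1 for the DOX comparison (7 false among 164 calls), and 57% and 99% for RA (8 among 164). The real arrays had far more genes called and scatter shared between genes, so these rates need not hold for them. The few arrays limit the precision. The members and lists were chosen with earlier results of these data known. Every member was accounted for, called members with all arrays, and in each list up to 4 called genes with the largest change. Alternatives covered the choice of probe set, dim genes, the spread, normalization, array weights, the replicate number and each array left out.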

Additional observations from a re-analysis of the deposited data

How the results depend on the processing

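Limits lie in the 3 arrays per condition, in the single probe set behind most calls, in signal near background for LOX and EPAS1, and in the low level of NDRG1. With the x_at and s_at probe sets left out, 23 members remained, of which 8 were called after DOX (2 higher; 12.7% of all genes called), 1 after RA (1 higher and 0 lower, with 1 lower at an unadjusted p under 0.05; 4.98% of all genes) and 2 were lower after RA than after DOX, and 9 differed over the 3 conditions. P4HA1 then reversed between RA and DOX, to −0.0395 (adjusted p = 0.82). With the mean of all probe sets 5 members fell after DOX, 1 was called after RA (0 higher by limma, 5 at an unadjusted p under 0.05) and 5 were higher after RA than after DOX, with 13.5%, 5.7% and 19% of all genes called in these comparisons. Among genes above the median level 3 members rose after DOX and 2 were lower after RA than after DOX. A trended and robust spread called 6 members after RA, 4 higher and 2 lower, and 8.35% of all genes.

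With each array left out in turn, 4 to 5 members rose and 5 to 9 fell after DOX, 2 rose and 1 to 2 fell after RA, and 4 to 9 were higher and 3 to 5 lower after RA than after DOX. The fewest falling members after DOX, 5, came without the second pluripotent array, and the fewest higher after RA than after DOX, 4, without the second differentiating array. Paralog pairs whose differences did not overlap numbered 8 to 11 after DOX and 3 to 7 after RA. Deviations of same-numbered arrays correlated at −0.10 to 0.20 and those of other-numbered arrays at −0.25 to 0.13. Not every array correlated best with its own number. These ranges overlap, and a weak pairing by replicate number was not tested. With the replicate block 14 members were called after DOX, 3 after RA and 12 between the treatments. All other counts of members or pairs, 187 in number, stayed within 1.5 times the main count.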
